A study of Mus musculus with 8 samples.

Results

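The genes described here are 33 interferon-induced genes, taken as a list of well-known members of the type I interferon response with the p200 family left out, out of 49315 gene IDs in a table of read counts. RNA of whole femoral shafts was sequenced from male C57BL6 mice aged 24 weeks, of which 4 were wild-type (WT) and 4 were Girk3-/- (KO), with no treatment named. Girk3 is the potassium channel subunit encoded by Kcnj9. The labels give the KO genotype without a promoter, a Cre line or a deleted exon. The shafts were flushed of marrow before RNA extraction, and each library was taken as 1 mouse. In whole tissue, fewer cells of a type and less RNA per cell cannot be told apart.

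Type I interferons bind the receptor pair IFNAR1 and IFNAR2, whose kinases JAK1 and TYK2 phosphorylate STAT2. STAT2 acts with IRF9 in a complex that binds interferon-stimulated response elements in the promoters of target genes, and the products of those genes sense viral nucleic acid, degrade it, block translation or tag proteins with ISG15. In bone, interferon signalling is known to restrain osteoclast formation. The p200 family, to which Ifi202b belongs, is also interferon-inducible, so the 33 genes address whether the higher Ifi202b of KO bone went with a general interferon response.

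The promoter sequences of 5 genes of the list and of Ifi202b are shown for the interferon-stimulated response element they hold or lack. RefSeq promoter windows on GRCm38.p6, from 250 bases before to 50 after a start, were matched for 24 of the 33 genes by symbol, and 11 of these 24 held GAAA, any 2 bases and GAAA, the core of the interferon-stimulated response element, on either strand. Of 32851 windows of the same length over all genes, 3.44% held them, against 11 of 29 windows of the list. The shorter letters TTCNNNGAA, the core of a site bound by STAT dimers and able to overlap the first motif, stood in 7 of the 29 windows and in 8.30% of all windows. The 160 bases before the start are given, with that motif on either strand in capitals and all sequences 5′ to 3′ in the direction of the gene. They lie at chr4:156200819-156200978 (minus), chr19:34640729-34640888 (plus), chr19:34583369-34583528 (plus), chr12:26456453-26456612 (minus), chr8:71537473-71537632 (minus) and chr1:173982845-173983004 (minus).
Isg15: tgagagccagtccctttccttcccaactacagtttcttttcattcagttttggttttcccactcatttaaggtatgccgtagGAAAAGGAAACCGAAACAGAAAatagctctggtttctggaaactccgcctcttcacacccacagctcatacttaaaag
Ifit1: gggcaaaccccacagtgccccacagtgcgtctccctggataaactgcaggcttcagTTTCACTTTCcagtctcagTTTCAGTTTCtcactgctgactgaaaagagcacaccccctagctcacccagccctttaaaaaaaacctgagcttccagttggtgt
Ifit3: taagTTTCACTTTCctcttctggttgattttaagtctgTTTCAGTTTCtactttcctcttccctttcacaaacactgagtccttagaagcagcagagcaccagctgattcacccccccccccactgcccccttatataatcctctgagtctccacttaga
Rsad2: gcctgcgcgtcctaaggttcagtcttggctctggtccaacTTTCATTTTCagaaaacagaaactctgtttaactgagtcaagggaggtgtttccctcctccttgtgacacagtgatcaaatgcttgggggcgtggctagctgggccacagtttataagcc
Bst2: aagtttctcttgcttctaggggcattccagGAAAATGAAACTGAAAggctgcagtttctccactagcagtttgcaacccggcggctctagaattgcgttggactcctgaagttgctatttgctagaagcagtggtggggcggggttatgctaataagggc
Ifi202b: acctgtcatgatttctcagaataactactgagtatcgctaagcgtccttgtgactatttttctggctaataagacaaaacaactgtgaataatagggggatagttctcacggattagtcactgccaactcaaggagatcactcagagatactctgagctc
Isg15 held 3 overlapping copies, Ifit1, Ifit3 and Bst2 held 2 each, and Rsad2 held 1. Ifi202b held none in these 160 bases and 1 copy of TTCNNNGAA. Bst2 also held 1 copy of these shorter letters. The window of Ifi213, the p200 gene lower in KO, held 1 copy of the first motif, at -73 from the start. All these bases are those of the reference genome GRCm38.p6 and were not read from the mice. Whether KO mice transcribe Ifi202b from the stretch shown was not tested. A match is a description of the letters and not a measured site.

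The libraries held 30087749 to 36553713 counts. Kcnj9 itself (chromosome 1, 172320501 to 172329318) was counted 7, 6, 6 and 23 times in WT mice 1 to 4 and 0, 8, 4 and 7 times in KO mice 1 to 4, too few to test or to check the genotype labels, since the deleted part is not named. Markers of bone were present in every library, with a summed level of 9192 to 22147 CPM (read counts scaled to library size with edgeR's TMM factors) in WT and 10206 to 18535 in KO over 12 genes. Most of this sum came from Col1a1 and Col1a2 in every library, at 11973 and 9041 CPM of the 22147 in WT replicate 1. Skeletal muscle markers summed higher in every library, to 63971 to 119262 CPM in WT and 100392 to 168052 in KO over 10 genes. Over all 17450 genes that passed the low-count filter, edgeR's quasi-likelihood test called 2, Ifi202b and Ifi213, at a Benjamini-Hochberg adjusted p under 0.05.

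None of the 33 interferon response genes passed that test, where 0.0115% of all genes were called. All 33 were expressed and passed the low-count filter. Mx2 (lower in KO) and Ifi27 (higher in KO) had an unadjusted p under 0.05, 2 of 33 genes where 18.2% of all genes tested had one. DESeq2 and limma-voom called 0 of the 33 as well, against 6.48% and 4.02% of all genes. Negative log2 fold changes (KO over WT) were found for 25 of the genes and positive ones for 8, where 51.4% and 48.6% of all genes had negative and positive values. The median log2 fold change was -0.19 over the list and -0.01 over all genes tested. The widest upper end of a 95% interval was a fold of 1.84, for Bst2, so that each of the 33 intervals, taken singly, ended below a doubling in KO with all 8 mice. That limit did not hold in every fit. The upper end for Bst2 passed 1 on the log2 scale without WT replicate 4 (1.01), without both replicates 4 (1.07) and with the muscle score as a covariate (1.07). The upper end for Isg15 passed it without both replicates 4 (1.06) and with the muscle score (1.07). At the other side, a halving in KO was not bounded for every gene. With all 8 mice the lower end passed -1 for Zbp1 (-1.28), Isg20 (-1.26), Oas3 (-1.25), Oasl1 (-1.16), Mx1 (-1.11) and Mx2 (-1.08). Levels of WT and KO libraries overlapped for all 33 genes, while 13.1% of all genes had groups that did not overlap (7.34% with KO above WT and 5.77% below).

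**Figure D1:**
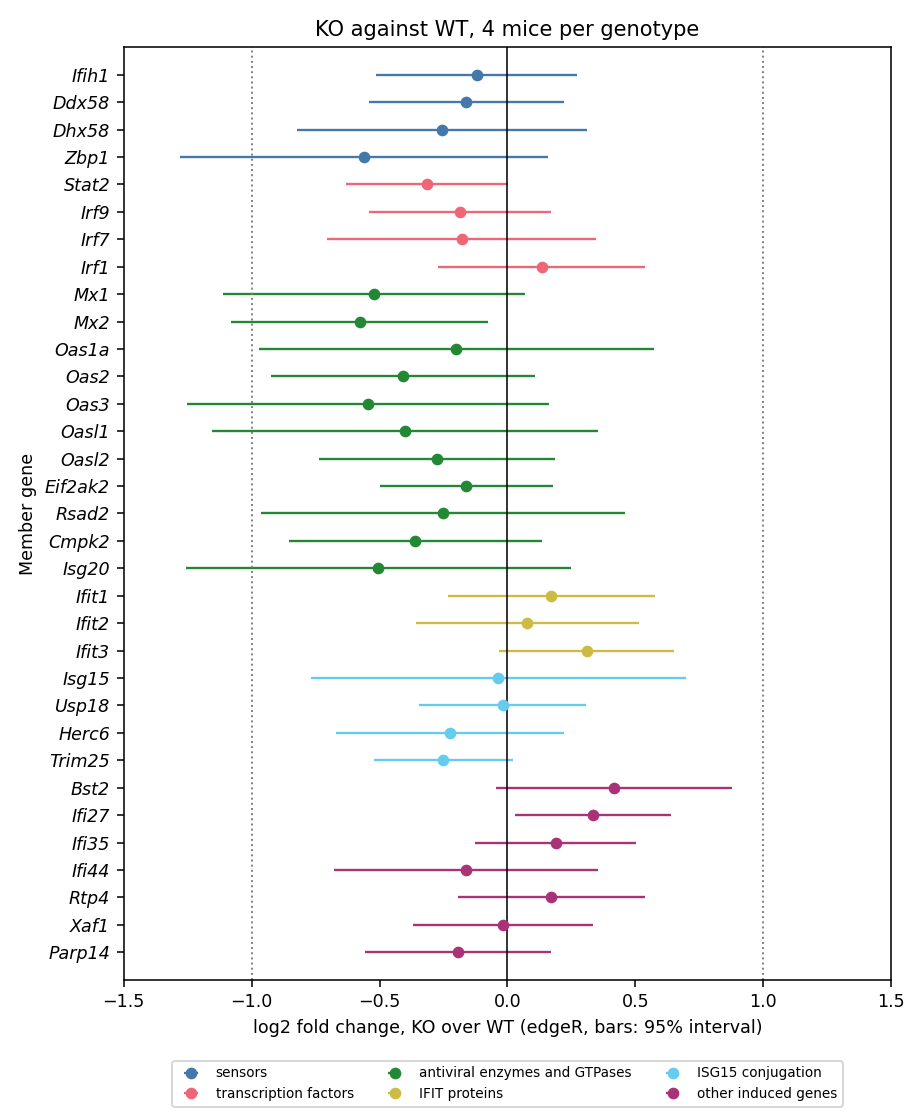
Log2 fold change of KO over WT (x axis, edgeR, 4 mice per genotype) for each of the 33 genes (y axis), coloured by role, with bars for the 95% interval and dotted lines at 1 and -1. All 11 antiviral enzymes and GTPases lie left of 0, the 3 IFIT genes lie right of it (Ifit2 moves to -0.045 without TMM), and no bar reaches 1. The bars of Zbp1, Isg20, Oas3, Oasl1, Mx1 and Mx2 pass -1.

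Ifi202b separated the genotypes in the same mice. It was at 0.0880, 0.122, 0.135 and 0.0928 CPM in WT replicates 1 to 4 and at 13.4, 11.3, 10.9 and 7.27 CPM in KO replicates 1 to 4. Its log2 fold change was 6.59 (with SE 0.29 and edgeR adjusted p = 8.25e-06). Ifi213 was at 2.70 to 5.64 CPM in WT and at most 0.0642 CPM in KO (edgeR adjusted p = 0.000847). The p200 genes resemble each other, and the counting could have split reads among them. Both called genes lie on the chromosome of Kcnj9 (chromosome 1, 172320501 to 172329318). Ifi213 is at 173566283 to 173599274 and Ifi202b at 173962568 to 173982744. Whether that position near the deleted gene had a part in their levels was not tested. WT replicate 4, the mouse with the highest level of most interferon response genes, had 4 counts of Ifi202b, and KO replicate 4, the mouse with the lowest mean level of the list, had 192.

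A single mouse stood apart in these genes. WT replicate 4 was the highest of the 4 WT libraries for 31 of the 33 genes, against 37.7% of all genes tested, and the highest of all 8 for 26, against 24.1%. The exceptions within WT were Ifit3 and Ifi44. The mean log2 CPM over the list was 3.51, 3.49, 3.44 and 4.11 in WT replicates 1 to 4 and 3.47, 3.70, 3.54 and 3.34 in KO replicates 1 to 4. The other 3 WT mice thus lay within the range of the KO mice. WT replicate 4 exceeded the mean of the other WT libraries by a median of 0.55 on the log2 scale over the list, against 0.01 over all genes. Isg20 (1.29), Oas3 (1.26), Oas1a (1.22), Oasl1 (1.2), Isg15 (1.18), Rsad2 (1.13) and Irf7 (1.01) exceeded it by more than 1. KO replicate 4 was the lowest of the 8 libraries for 12 of the genes, against 20.1% of all genes.

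**Figure D2:**
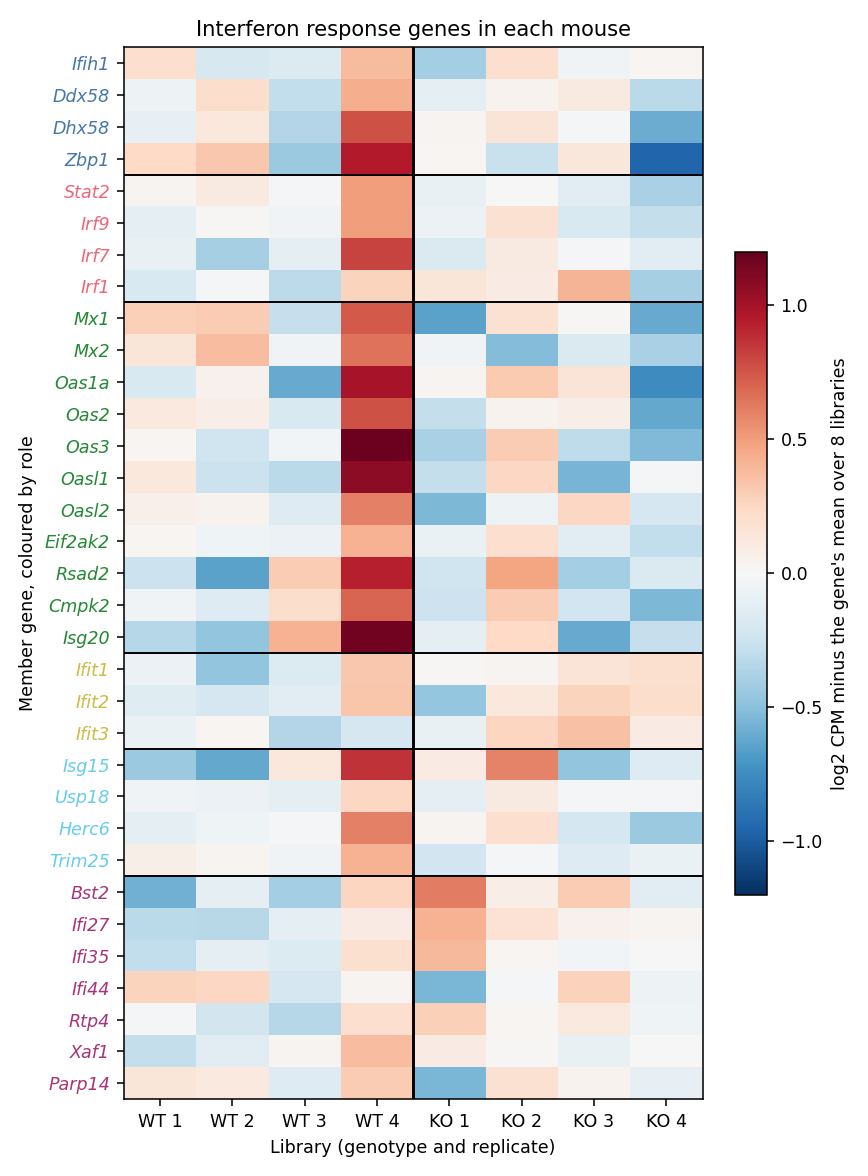
Log2 CPM of each of the 33 genes (rows, grouped and coloured by role) in each library (columns), minus the gene's own mean over the 8 libraries. The WT replicate 4 column is the highest of the 8 in 26 rows, and the KO replicate 4 column the lowest in 12.

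The same mouse differed in markers of other cells. Its mean log2 CPM was the highest of 8 libraries for the B cell (3.89), T and NK cell (1.14) and bone markers (7.55). WT replicate 4 had the highest mean log2 CPM of 8 libraries for 10 macrophage markers, at 4.74 against 3.98 to 4.28 in the other WT mice and 3.77 to 4.47 in KO, and for 8 erythroid markers, at 9.69 against 8.10 to 9.07 and 8.19 to 9.18. Its 10 skeletal muscle markers were the lowest, at 12.3 against 13.0 to 13.1 in the other WT mice, and KO replicate 4 had the highest, at 13.5. The 10 neutrophil markers were at 8.56 in WT replicate 4, at 5.81 in KO replicate 4 and at 6.73 to 8.97 in the other libraries. The 7 tested markers of plasmacytoid dendritic cells, strong producers of interferon, were at 4.34 in WT replicate 4, 3.82 to 4.06 in the other WT mice, 3.78 to 4.16 in KO replicates 1 to 3 and 3.41 in KO replicate 4. These 7 genes did not move as one, since WT replicate 4 was the highest of the 8 libraries for 5 of the 7 and the lowest for Tcf4 and Cox6a2. Tcf4 (134 to 196 CPM) and Cox6a2 (308 to 692 CPM) stood far above the other 5 (0.606 to 17.6 CPM). Cox6a2 was highest in KO replicate 4, where the mean of the muscle markers was also highest. How much of the reads of these 2 genes came from dendritic cells was not tested. No marker of these lists was at 0 in any library. With the macrophage score as a covariate the median log2 fold change of the 33 genes was -0.14, and with the marrow score (neutrophil, B cell and erythroid markers) -0.16. With the muscle score it was 0.10. That score was itself higher in KO on average, at 13.2 ± 0.231 against 12.8 ± 0.387 in WT (SD over n = 4 mice per genotype). In replicates 1 to 3 the score was 13.0 to 13.1 in WT and 13.0 to 13.2 in KO. DESeq2 called 2 of its 10 markers, Tnni2 and Pvalb, higher in KO, where it called 6.48% of all genes. The tests of edgeR and limma-voom called 0 of the 10, and 3 of the 10 had negative log2 fold changes. Because the muscle score was higher in KO on average, the fit with it cannot separate muscle content from genotype in full. Beyond these fits, the part of these cells in the levels of the 33 genes was not tested.

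Leaving out both replicates 4 turned the sign of the list's median. WT replicate 4 had the highest mean log2 CPM of the list (4.11) and KO replicate 4 the lowest (3.34). Their removal thus had to move the mean of the list upward in KO against WT. Without WT replicate 4 the median log2 fold change was -0.01, with 16 genes higher and 17 lower in KO. Without WT and KO replicate 4 it was 0.05, with 19 higher and 14 lower, against a median of -0.000344 over all genes. In those 6 mice all 3 KO lay above all 3 WT for 6 genes (Irf1, Ifit1, Bst2, Ifi27, Ifi35 and Rtp4) and below them for 0, against 15.5% and 14.7% of all genes. None of the 33 passed edgeR's test in the 6 mice, where 2.62% of all genes were called. The lowest adjusted p were those of Bst2 (log2 fold change 0.70, edgeR adjusted p = 0.0523) and Ifi27 (0.48, edgeR adjusted p = 0.0698).

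**Figure D3:**
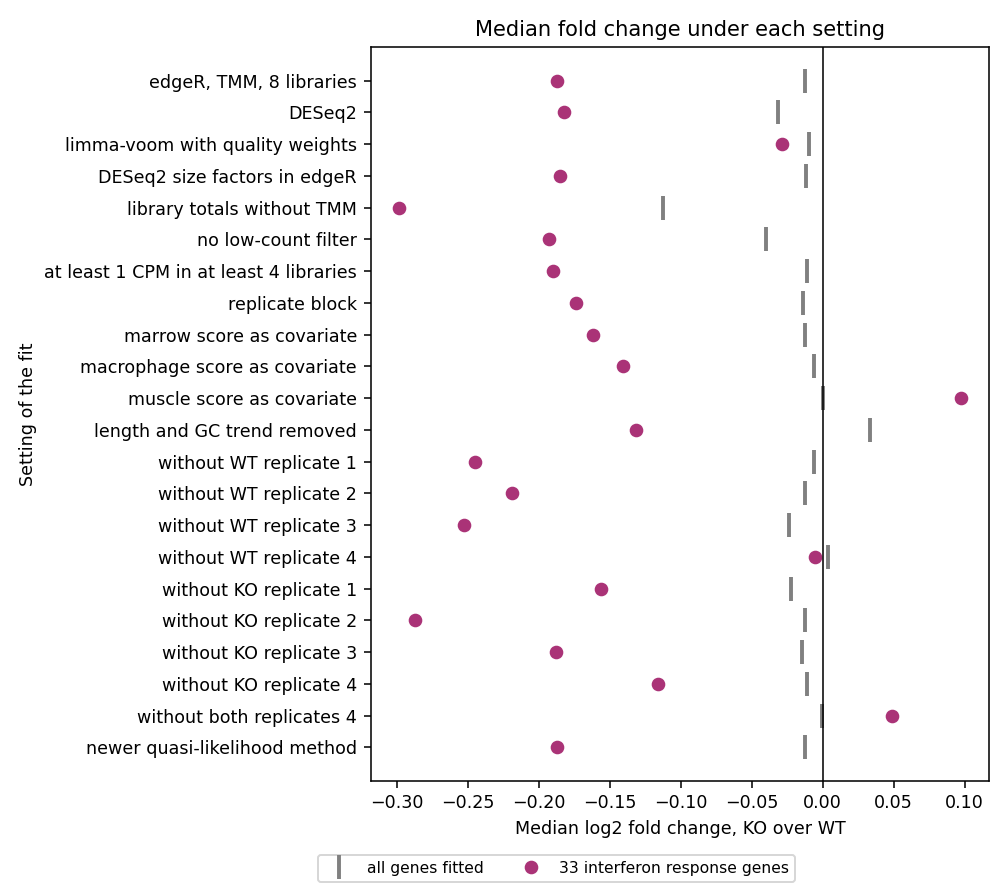
Median log2 fold change of KO over WT (x axis) for the 33 genes (points) and for all genes fitted (ticks) under each setting of the fit (y axis). The list lies between -0.30 and -0.12 under most settings, near 0 with limma-voom or without WT replicate 4, and above 0 with the muscle score as a covariate or without both replicates 4.

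**Figure D4:**
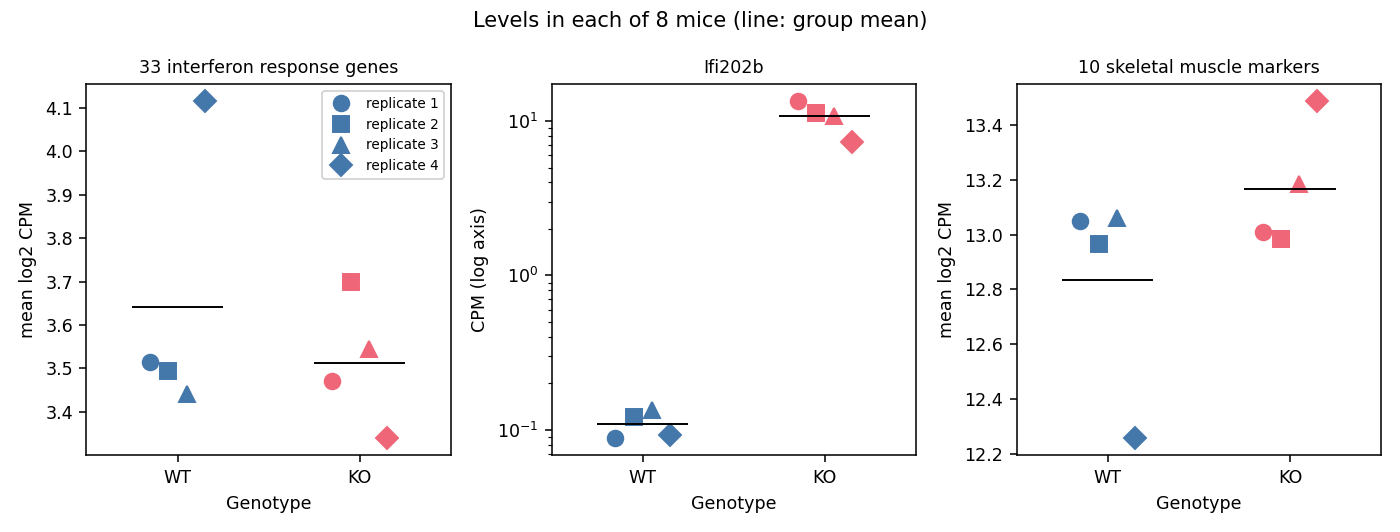
Levels in each of the 8 mice (symbols by replicate number, lines at the group means): mean log2 CPM of the 33 genes, CPM of Ifi202b on a log axis, and mean log2 CPM of 10 skeletal muscle markers. Ifi202b separates the genotypes, whereas WT replicate 4 alone stands at 4.11 for the 33 genes and lies lowest for muscle.

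The list spanned a wide range of levels. Scaled for exon length as well as depth (RPKM, mean of all 8 libraries), Ifi27 was highest at 39.4, followed by Bst2 (30.9), Isg20 (26.2), Isg15 (24.2) and Rsad2 (19.0). The lowest were Ifi44 at 0.327, Mx2 at 0.566, Zbp1 at 0.709 and Oasl1 at 0.845. The 8 genes with positive fold changes had a median of 1938 exonic bases and the 25 with negative ones 4451. Over all genes, the median log2 fold change was 0.13 in the length decile of 1903 to 2559 bases, which holds the first of these medians, and -0.02 in that of 3857 to 4649, which holds the other. With the trend of each library with length and GC content removed, the list had 9 genes higher and 24 lower and a median of -0.13.

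All 4 sensors of foreign nucleic acid had values below 0 on the log2 scale (KO over WT), and their median was -0.21. Without both replicates 4, Dhx58 (0.15) and Ddx58 (0.049) were above 0. Zbp1, which binds left-handed nucleic acid and can start cell death (chromosome 2, 173206612 to 173218923), was at 2.76, 2.93, 1.72 and 4.53 CPM in WT replicates 1 to 4 and at 2.37, 1.94, 2.57 and 1.21 CPM in KO replicates 1 to 4. Its log2 fold change was -0.56 (with SE 0.32 and edgeR adjusted p = 0.397), and the KO range from 1.21 to 2.57 overlapped 1 of the 4 WT mice. Dhx58, the regulator LGP2 of the RIG-I-like helicases, was at 6.13, 7.17, 5.16 and 11.2 CPM in the WT mice, against 6.71, 7.32, 6.46 and 4.36 CPM in the KO mice (log2 fold change -0.26 with SE 0.26 and edgeR adjusted p = 0.653). Apart from replicates 4, the 2 genotypes were interleaved. Ifih1, which encodes the long-RNA sensor MDA5, was at 13.0 ± 2.53 CPM in the WT mice against 11.9 ± 2.01 CPM in the KO mice (SD over n = 4 mice per genotype, with log2 fold change -0.12). Ddx58, which encodes RIG-I, was at 16.1 ± 3.51 and 14.4 ± 1.85 CPM (-0.16).

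The transcription factors had log2 fold changes from -0.31 to 0.13. Stat2, a subunit of the interferon-activated complex (chromosome 10, 128270559 to 128292849), was at 29.9, 31.5, 28.7 and 41.6 CPM in WT replicates 1 to 4 and at 27.5, 29.1, 26.8 and 22.4 CPM in KO replicates 1 to 4. Only KO replicate 2 lay above the lowest WT mouse, and the log2 fold change was -0.31 (with SE 0.14 and edgeR adjusted p = 0.277). Irf9, the DNA-binding subunit of that complex, was at 28.6, 31.2, 30.1 and 43.9 CPM in the WT mice, against 29.5, 35.2, 27.4 and 25.5 CPM in the KO mice (-0.19, SE 0.16, edgeR adjusted p = 0.588). Irf7, which amplifies interferon production and is itself strongly induced, was at 16.6, 13.3, 16.2 and 30.9 CPM in the WT mice, against 15.6, 19.0, 17.4 and 16.1 CPM in the KO mice (-0.18, SE 0.24, edgeR adjusted p = 0.742). Its 4 KO values lay inside the WT range. Irf1, which also answers to interferon gamma, was at 30.1 ± 5.42 CPM in the WT mice against 32.97 ± 7.28 CPM in the KO mice (SD over n = 4 mice per genotype, with log2 fold change 0.13).

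For the 11 antiviral enzymes and GTPases every log2 fold change was below 0, and the median was -0.40. Without both replicates 4, Oas1a (0.39), Rsad2 (0.14) and Eif2ak2 (0.035) were above 0. WT replicate 4 was the highest of the 8 libraries for all 11. Mx2 (chromosome 16, 97535308 to 97560900), a dynamin-like GTPase, was at 2.20, 2.56, 1.92 and 3.11 CPM in WT replicates 1 to 4 and 1.93, 1.38, 1.76 and 1.52 CPM in KO replicates 1 to 4. KO replicate 1 reached just above WT replicate 3, and the other KO mice lay below all WT mice. The log2 fold change was -0.58 (with SE 0.23 and edgeR adjusted p = 0.216), the lowest of the 33 genes. Without both replicates 4 it was -0.40 (edgeR adjusted p = 0.370). Its neighbour Mx1, known to carry a defective allele in C57BL/6 mice, was at 5.13, 5.19, 3.47 and 7.03 CPM in the WT mice, against 2.70, 4.79, 4.27 and 2.77 CPM in the KO mice (-0.52, SE 0.27, edgeR adjusted p = 0.335).

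The oligoadenylate synthetases make the second messenger that activates RNase L. Oas2 was at 8.68, 8.42, 7.05 and 13.6 CPM in WT replicates 1 to 4 and 6.55, 8.23, 8.44 and 5.23 CPM in KO replicates 1 to 4 (log2 fold change -0.41 with SE 0.23 and edgeR adjusted p = 0.385). Oas3 was at 15.6 ± 8.09 CPM in the WT mice against 10.7 ± 3.02 CPM in the KO mice (SD over n = 4 mice per genotype), with WT replicate 4 at 27.7 CPM and the other WT mice at 10.4 to 12.4. Its log2 fold change was -0.55 with all mice and -0.02 without both replicates 4. Oas1a (-0.20), Oasl1 (-0.40) and Oasl2 (-0.28) belong to the same family, whose copies resemble each other, so that their single levels are uncertain.

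Rsad2, which encodes viperin, and Cmpk2 lie side by side on chromosome 12 and both act on nucleotides. Rsad2 was at 89.3 ± 43.1 CPM in the WT mice against 75.02 ± 22.2 CPM in the KO mice (SD over n = 4 mice per genotype, with log2 fold change -0.25), and Cmpk2 at 25.2 ± 7.06 and 19.7 ± 5.07 CPM (-0.36). In both genes WT replicate 4 was highest and KO replicate 2 the highest of the KO mice. Isg20, an exonuclease, ranged from 32.4 to 100.5 CPM in WT and from 29.5 to 53.0 in KO (-0.51). Eif2ak2, which encodes the kinase PKR that halts translation, was at 19.0 ± 3.21 CPM in the WT mice against 17.0 ± 2.51 CPM in the KO mice (SD over n = 4 mice per genotype, with log2 fold change -0.16).

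The 3 IFIT genes, whose products bind viral RNA or the translation machinery, had positive log2 fold changes, except Ifit2 (-0.045) on library totals without TMM. Ifit3 (chromosome 19, 34583531 to 34588731) was at 6.66, 7.14, 5.53 and 6.10 CPM in WT replicates 1 to 4 and 6.61, 8.404, 8.97 and 7.54 CPM in KO replicates 1 to 4. KO replicates 2 to 4 lay above all WT mice and KO replicate 1 did not (log2 fold change 0.31 with SE 0.15 and edgeR adjusted p = 0.322). Ifit1 was at 5.69, 4.30, 5.33 and 7.47 CPM in the WT mice, against 6.07, 6.14, 6.65 and 6.86 CPM in the KO mice (0.17, SE 0.18, edgeR adjusted p = 0.677). Only WT replicate 4 kept the genotypes from separating for Ifit1. Ifit2 was at 8.42 ± 1.56 CPM in the WT mice against 8.90 ± 1.86 CPM in the KO mice (SD over n = 4 mice per genotype, with log2 fold change 0.08). Ifit3 has the near-identical neighbour Ifit3b, which could have shared its reads.

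The genes of ISG15 conjugation had log2 fold changes between -0.25 and -0.02. Isg15, the ubiquitin-like modifier itself (chromosome 4, 156199424 to 156200818), was at 12.7, 11.2, 18.7 and 31.4 CPM in WT replicates 1 to 4 and 18.4, 25.9, 12.4 and 15.5 CPM in KO replicates 1 to 4. The mice of both genotypes were mixed throughout, with a log2 fold change of -0.04 (SE 0.33, 95% interval -0.77 to 0.70, edgeR adjusted p = 0.970). Trim25, a ligase for RIG-I, was at 37.9, 36.97, 35.04 and 48.3 CPM in the WT mice, against 30.9, 35.5, 32.4 and 34.3 CPM in the KO mice (-0.25, SE 0.12, edgeR adjusted p = 0.312). Herc6, the mouse ISG15 ligase, was at 10.2, 10.6, 10.9 and 16.8 CPM in the WT mice, against 11.3, 12.6, 9.50 and 8.11 CPM in the KO mice (-0.23, SE 0.20, edgeR adjusted p = 0.603). Usp18, which removes ISG15 and damps the receptor, was the steadiest of this group, at 5.87 ± 0.706 CPM in the WT mice against 5.79 ± 0.356 CPM in the KO mice (SD over n = 4 mice per genotype, with log2 fold change -0.02).

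Among the other 7 induced genes, 4 had positive and 3 negative log2 fold changes. Ifi27 (chromosome 12, 103434211 to 103440239), which encodes a mitochondrial protein, was at 45.5, 45.2, 52.9 and 61.0 CPM in WT replicates 1 to 4 and 76.4, 64.3, 59.1 and 58.4 CPM in KO replicates 1 to 4. All KO mice lay above WT replicates 1 to 3, and KO replicates 3 and 4 lay below WT replicate 4. The log2 fold change was 0.33 (with SE 0.14 and edgeR adjusted p = 0.235). Bst2 (chromosome 8, 71534255 to 71537456), the tetherin that holds budding virus at the membrane, was at 18.1, 24.9, 20.3 and 32.2 CPM in the WT mice, against 41.3, 28.5, 33.3 and 24.5 CPM in the KO mice (0.42, SE 0.21, edgeR adjusted p = 0.321). Here KO replicate 4 was the lowest KO mouse and WT replicate 4 the highest WT mouse, and the genotypes overlapped through them.

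Bst2 and Ifi27 were the 2 genes of the list that any fit called. Both passed, higher in KO, with the muscle score as a covariate (log2 fold change 0.73, edgeR adjusted p = 0.0364, and 0.49, adjusted p = 0.0429), and Bst2 passed with the marrow score (0.44, edgeR adjusted p = 0.0450). The same fits called 4.93% and 7.38% of all genes. Bst2 has 903 exonic bases and Ifi27 has 1467. Over all genes, the median log2 fold change was 0.21 in the length decile of Bst2 and 0.20 in that of Ifi27. After correction for exon length and GC content, Bst2 was at 0.28 (edgeR adjusted p = 0.474) and Ifi27 at 0.21 (edgeR adjusted p = 0.407). The part of length in the calls with the marker scores was not tested. Ifi35 was at 23.1 ± 3.44 CPM in the WT mice against 26.4 ± 3.81 CPM in the KO mice (SD over n = 4 mice per genotype, with log2 fold change 0.19), and Rtp4, a receptor chaperone, at 6.23 ± 1.05 and 7.03 ± 0.720 CPM (0.17). Ifi44 (-0.16), the apoptosis-linked Xaf1 (-0.02) and the ADP-ribosyltransferase Parp14 (-0.19) had negative values.

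Reads counted for the interferons themselves were almost absent. Of 18 ligand genes, 14 had no count in any library, Ifnb1 and 10 Ifna genes among them. For reads that the counting assigned to a gene, this allows at most 0.0215 CPM in WT and 0.0243 CPM in KO at 3 counts over a group. The treatment of multiply mapped reads is not known. Had reads matching several similar genes been left out, these limits would not bound the levels of such genes. Whether this applied to the Ifna genes was not tested. The highest count of a ligand in a library was 4, for Ifng in KO replicate 2, and no ligand passed the low-count filter.

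Of 36 tested genes that act before or beside the list, 0 passed edgeR's test, 1 higher and 2 lower in KO had an unadjusted p under 0.05, and the median log2 fold change was -0.09. Background shares for the unadjusted threshold were 9.59% higher and 8.59% lower. Tyk2, the receptor kinase, was at 34.9, 43.6, 34.5 and 43.4 CPM in WT replicates 1 to 4 and 28.3, 29.5, 28.9 and 25.2 CPM in KO replicates 1 to 4. All KO mice lay below all WT mice, with a log2 fold change of -0.48 (with SE 0.12 and edgeR adjusted p = 0.0940, DESeq2 adjusted p = 0.0160). The receptor subunit gene Ifnar1 was at 34.7, 33.8, 28.9 and 35.9 CPM in the WT mice, against 32.0, 28.4, 27.2 and 25.4 CPM in the KO mice (-0.24, edgeR adjusted p = 0.2995). Ifnar2 was at 27.3, 35.6, 27.0 and 47.5 CPM in the WT mice, against 36.9, 32.3, 35.5 and 23.6 CPM in the KO mice (-0.10, edgeR adjusted p = 0.844).

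Among negative regulators, Adar, which edits double-stranded RNA, was at 23.6 ± 3.77 CPM in the WT mice against 17.5 ± 2.45 CPM in the KO mice (SD over n = 4 mice per genotype, with log2 fold change -0.44, edgeR adjusted p = 0.167). Socs1, the feedback inhibitor of JAK kinases, was at 3.40, 2.96, 4.62 and 3.57 CPM in WT replicates 1 to 4 and 4.91, 6.29, 4.987 and 5.0004 CPM in KO replicates 1 to 4. Its groups did not overlap, and it did not pass (0.54, SE 0.19, edgeR adjusted p = 0.169). In upstream sensing, Tlr9 (-0.55) and Traf3 (-0.29) had the smallest p. Uba7, the activating enzyme for ISG15, was at -0.42 and Ube2l6, its conjugating enzyme, at 0.00.

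Other interferon-induced genes gave the same count. Of 40 tested genes outside the list, edgeR called 0, with 15 positive and 25 negative log2 fold changes and a median of -0.06. Helz2, a helicase and nuclear receptor coactivator, was at 39.4, 40.4, 33.3 and 46.2 CPM in WT replicates 1 to 4 and 16.2, 27.6, 23.9 and 22.2 CPM in KO replicates 1 to 4. The genotypes did not overlap (-0.82, SE 0.17, edgeR adjusted p = 0.0769), and DESeq2 and limma-voom called it (adjusted p = 0.00161 and 0.0302). Znfx1 was at -0.31 (edgeR adjusted p = 0.188). Of 20 genes typical of interferon gamma, edgeR called 0, with 13 positive and 7 negative values and a median of 0.04. Ciita (-1.09) and Gbp7 (-0.44) had the smallest p (edgeR adjusted p = 0.183 and 0.253).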

How the data were processed

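Per the submitters' processing notes, the authors used bcl2fastq 2.17, the aligner STAR 2.5.2b, Subread 1.5.2 with its counter featureCounts, and mm10. The deposited values are raw counts, 1 row per Ensembl ID. The sources used here do not give the annotation release, the strand setting or the treatment of multiply mapped reads, so overlapping or near-identical genes cannot be told apart. Exons of 11 of the 33 genes overlap those of another gene in GENCODE M21, 7 of them on the other strand. M21 (GRCm38, the same build as mm10) gave symbols for 49056 of 49315 IDs. The other 259 took at most 0.0225% of a library's counts.

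Genotypes were tested in R 4.3.3 with edgeR 4.0.16 (quasi-likelihood, robust, genotype the only term) after filterByExpr and TMM scaling, with Benjamini-Hochberg adjustment over 17450 genes. Intervals are 95%, from the fitted SE, and are not adjusted for the number of genes. Log2 CPM used a prior count of 2. DESeq2 1.42.0, limma-voom (limma 3.58.1) with quality weights, other scalings and filters, covariates (marker scores, each the mean log2 CPM of a list), a length and GC correction (loess, span 0.3) and left-out libraries were alternatives. Fits were tested on simulated counts drawn separately for each gene. Those counts held no library shifted over many genes, as WT replicate 4 was, so they do not test that case. No 2 libraries were repeats (chi-square per degree of freedom at least 39.4).

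The 33 genes, the lists and the settings were chosen with earlier results of these data known. Values in every library are given for the 2 genes with the smallest p in each role and for standard readouts. Other genes of the list get a level or a fold change, and in every other list the 2 genes with the smallest p are named. The values of 1 pathway gene are not reported here. Tcf4, Cox6a2, the neighbours and relatives of genes of the list, and the genes named in the comparison of replicates 4 were named after their values were seen. The p-values measure the spread between these 8 mice only.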

Additional observations from a re-analysis of the deposited data

Results flagged for a closer look

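In 7 of 66 groups of 4 libraries (33 genes in 2 genotypes), 1 library stood so far from the others that its gap to the next passed Dixon's 95% critical value for 4 values, and 6 of the 7 were WT replicate 4. Chance flags about 1 in 20 groups, and the 33 genes share libraries, so the flags are not independent. WT replicate 4 stood high for Irf9 (43.9 CPM, next 31.2), Oas3 (27.7, next 12.4), Eif2ak2 (23.8, next 18.1), Ifit2 (10.7, next 7.82), Usp18 (6.92, next 5.63) and Herc6 (16.8, next 10.9). KO replicate 1 stood high for Ifi35 (32.1 CPM, next 24.8). WT replicate 4 also stood apart in the mean log2 CPM of the 33 genes (4.11, next 3.51) and in their share of all counts (0.106%, next 0.0582%). Ifi213 had no count in KO replicate 4 (0 CPM, against 0.0588 in the next KO library).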

How the results depend on the processing

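Of 693 values (33 genes under 21 alternatives), 637 kept their direction and side of the threshold, 3 passed it and 53 changed sign. For 17 genes the sign never changed. Where a cause is not named, it was not tested. Library totals without TMM moved the median of all genes from -0.01 to -0.11 and that of the 33 genes to -0.30, with Ifit2 at -0.045. All genes called numbered 992 with DESeq2, 701 with limma-voom, 71 with no low-count filter, 1287, 728 and 861 with the marrow, macrophage or muscle score as covariate, and 458 without both replicates 4. Of the 33, the marrow score gave 1 call and the muscle score 2. Higher in KO were 15 with limma-voom, 23 with the muscle score and 19 without both replicates 4. Of the pathway genes 1 (Tyk2) was called with DESeq2, the marrow score and the macrophage score. Of the interferon gamma genes 1 (Ifi47, 0.82 and 0.81) was called with the muscle score and without both replicates 4. Of the other induced genes 1 (Helz2) was called with DESeq2, limma-voom, no filter and the marrow score, 2 with the macrophage score (Helz2, Samd9l), 4 with the muscle score (Helz2, Ifitm3, Nmi, Psmb9) and 1 (Psmb9) without both replicates 4. Signs changed with limma-voom for Ifih1 (0.033), Irf7 (0.15), Oas1a (0.18), Rsad2 (0.12), Isg15 (0.27), Usp18 (0.064) and Xaf1 (0.067). They changed for Isg15 and Xaf1 with the marrow score (0.050 and 0.00074) and the macrophage score (0.079 and 0.015), and for Xaf1 with length and GC removed (0.015). With the muscle score they changed for Ifih1 (0.0074), Ddx58 (0.064), Dhx58 (0.18), Irf9 (0.068), Irf7 (0.22), Oas1a (0.43), Oas3 (0.038), Oasl1 (0.10), Eif2ak2 (0.054), Rsad2 (0.20), Isg20 (0.025), Isg15 (0.48), Usp18 (0.097), Herc6 (0.099) and Xaf1 (0.16). Without both replicates 4 they changed for Ddx58 (0.049), Dhx58 (0.15), Irf9 (0.035), Irf7 (0.17), Oas1a (0.39), Eif2ak2 (0.035), Rsad2 (0.14), Isg15 (0.42), Usp18 (0.074), Herc6 (0.074) and Xaf1 (0.13). Leaving out 1 library gave 2 to 4 genes called (4 without KO replicate 4) and 8 to 16 of the 33 higher (16 without WT replicate 4). The ranges that crossed 0 were -0.39 to 0.011 for Dhx58, -0.32 to 0.14 for Irf7, -0.27 to 0.34 for Isg15, -0.39 to 0.21 for Oas1a, -0.56 to 0.013 for Oasl1, -0.48 to 0.10 for Rsad2, -0.062 to 0.067 for Usp18 and -0.11 to 0.12 for Xaf1, each highest without WT replicate 4. Same-numbered mice did not deviate together (r from -0.57 to -0.17), so the numbers were not taken to pair them. With the replicate block 1 gene was called in all and 0 of the 33, with Isg15 at 0.029, Xaf1 at 0.0026 and an upper end of the 95% interval of Bst2 at 1.05. At 3 counts in 1 library, levels under 0.114 CPM could not be told from 0.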
